A study of Mus musculus with 6 samples.

Results

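The core circadian clock of mouse liver was examined through 10 genes. They were the activators Arntl (which encodes BMAL1), Clock and Npas2, the repressors Per1, Per2, Per3, Cry1 and Cry2, and the output factors Dbp and Tef. The genes were chosen with earlier results of these data known. Their probes were taken by symbol alone, and each probe annotated to one of these symbols was used. That gave 13 of the 55681 probes on the array, for 10 of 24239 gene symbols. Of the 10 genes, 8 gave enough signal to be tested, through 10 of their 13 probes.

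The livers came from male B6C3F1 mice, 7 weeks of age. The control mice received corn oil by mouth for 5 days, and the exposed mice received trichloroethylene (TCE), an industrial solvent, for the same 5 days at a dose of 1000 mg/kg b.w., with corn oil as its vehicle. Each group had 3 mice, each mouse had its own 1-colour microarray, and no RNA was pooled. The mice were kept on a light-dark cycle with free access to food, and the time of day at which each liver was taken is not given in the sources used here. The paper states that all mice were killed at about the same short interval after the last dose.

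In the clock, CLOCK or its relative NPAS2 pairs with BMAL1, and the pair binds E-box sequences and switches on the Per and Cry genes, whose proteins return to the nucleus and block that pair. A second loop links this circuit to Arntl, which the orphan receptors REV-ERB (Nr1d1, Nr1d2) repress and the ROR receptors activate. Dbp and Tef encode PAR bZip factors that act on D-box sequences in metabolic genes, and the repressor NFIL3 competes for the same sequences. In rodent liver the Arntl message crests at the opposite part of the day from the Dbp message, and both swing widely over a day.

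The sequence elements named above are shown here for the members whose promoters hold them. RefSeq start sites on GRCm38.p6 gave 14 promoter windows of 300 bases, from 250 bases before to 50 bases after each start, for 9 of the 10 members (no window was found for Per2). The E-box CACGTG was searched with the D-boxes TTATGTAA and TTACGTAA and the ROR element TAGGTCA, on both strands. CACGTG reads the same on both strands, and no match overlapped another. An E-box was found in 3 members, Per1, Cry1 and Tef (4 of the 14 windows), and in 7.15% of all 32851 windows. A D-box was found in 1 member, Per3, and in 1.06% of all windows. A ROR element was found in 1 member, Arntl, in 1 of its windows and in 2.61% of all windows. Each stretch below lies wholly before the start site and is written 5′ to 3′ on the strand of the gene, with the matched element in capitals. They are shown because Per1 and Cry1 stand for the direct targets of the activator pair, Tef for an E-box in front of an output factor, and Per3 for a repressor with D-boxes.
Per1 (chr11:69098743-69098843, plus strand, E-box 166 bases before the start): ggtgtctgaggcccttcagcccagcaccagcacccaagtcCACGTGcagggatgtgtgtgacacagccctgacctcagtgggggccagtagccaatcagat
Cry1 (chr10:85185075-85185175, minus strand, E-box 60 bases before the start): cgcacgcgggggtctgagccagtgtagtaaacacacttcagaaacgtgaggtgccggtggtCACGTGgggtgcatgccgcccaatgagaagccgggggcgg
Tef (chr15:81802496-81802596, plus strand, E-box 127 bases before the start): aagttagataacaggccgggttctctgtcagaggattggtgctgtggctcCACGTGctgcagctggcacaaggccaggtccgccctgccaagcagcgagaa
Per3 (chr4:151044796-151044896, minus strand, D-boxes 205 and 158 bases before the start): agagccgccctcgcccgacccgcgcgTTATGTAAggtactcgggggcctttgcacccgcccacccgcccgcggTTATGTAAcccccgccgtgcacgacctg
The 2 Per3 elements have the same letters and the same orientation. A match in letters is a description and not a binding site.

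Values below are log2 probe signals after quantile normalization of the 6 arrays, so that 1 unit is a 2-fold difference. Signals of different probes are not compared, because each probe has its own brightness. A call needed an adjusted p of 0.05 or less (limma, Benjamini-Hochberg over all detected probes) with a fold change of 2 or more. On this rule 1.41% of the 22731 probes and 1.73% of the 13284 genes tested differed between TCE and control mice. None of the 8 tested clock genes did: 0 were called, 0 passed the adjusted p alone, as 2.39% of all genes did, 0 had an unadjusted p under 0.05 in limma, where 19.1% of all genes did, and 0 were called by the methods' t-test, where 3.09% were. None had groups that did not overlap, against 27.9% of all genes. Group differences and their 95% intervals were from -0.33 to 0.30 and from -1.56 to 1.06 on the log2 scale over the 8 genes, so a 2-fold change lay outside the interval for 5 of them and inside it for Arntl, Per1 and Per3.

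The array as a whole set the frame for these values. Log2 signals of any pair of control arrays correlated at 0.987 to 0.99, of any TCE pair at 0.978 to 0.987, and of any pair across the groups at 0.971 to 0.982. Between 23595 and 25004 probes per array were well above background, and no spot was saturated. Control mouse 1 was hybridised on a slide of its own and scanned separately, while the other 5 mice shared a slide and a scan. The exposure was visible in target genes of the nuclear receptor PPARalpha, of which 9 of 12 tested rose, where 1.3% of all genes did. That list was written with earlier results of these data known. Cyp4a14, a fatty acid omega-hydroxylase, rose by 5.42 ± 0.27 (log2, SE; adjusted p = 0.00109, limma), and Acot2, an acyl-CoA thioesterase, was not well above background in controls and was at least 22.7-fold higher in TCE mice (adjusted p = 0.00111, limma). The p-values set the difference of group means against the spread within the groups, which limma steadies with that of all detected probes. Where labels say only that samples are separate mice of a group, they extend to no more than these 6 mice. Fewer cells of a type and less RNA per cell cannot be told apart in whole liver RNA.

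**Figure D1:**
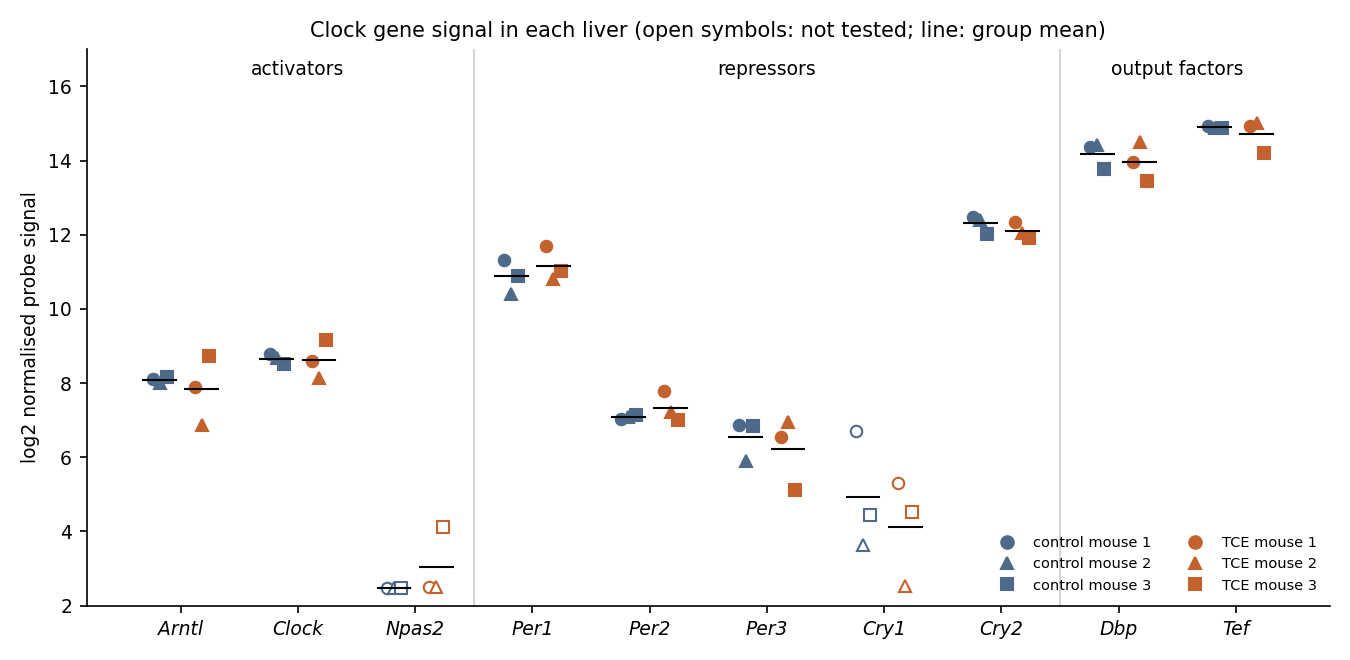
Log2 normalised signal (y axis) of the probe standing for each of the 10 clock genes (x axis) in each of 3 control and 3 TCE livers. Symbols mark single mice, lines mark group means, and open symbols mark Npas2 and Cry1, which were not tested; heights are comparable within a gene only, and Arntl and Clock are highest in TCE mouse 3 and lowest in TCE mouse 2.

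In the activator arm, the 3 control mice lay close together and the TCE mice lay apart. Arntl (mm9 chr7:120457261-120457320) read 8.10, 8.00 and 8.16 in control mice 1, 2 and 3 and 7.89, 6.87 and 8.73 in TCE mice 1, 2 and 3. TCE mouse 2 was below every other mouse and TCE mouse 3 above every other mouse, with the control values in between. The group difference was -0.26 ± 0.44 (log2, SE, n = 3 and 3; 95% interval -1.31 to 0.79; adjusted p = 0.802, limma), and the SD was 0.08 in control and 0.93 in TCE mice.

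Clock (mm9 chr5:76641377-76641436), the partner of BMAL1 and a histone acetyltransferase, read 8.78, 8.68 and 8.52 in control mice and 8.59, 8.15 and 9.15 in TCE mice. The order of the extremes was that of Arntl, with TCE mouse 2 lowest and TCE mouse 3 highest. The group difference was -0.02 ± 0.26 (95% interval -0.64 to 0.59; adjusted p = 0.975, limma), with an SD of 0.13 in control and 0.50 in TCE mice. Npas2 (mm9 chr1:39418941-39419000) gave no signal that counted as detected in any of the 6 livers and was not tested. Its signal was 2.48, 2.48 and 2.47 in control mice and 2.50, 2.51 and 4.11 in TCE mice, and no order was read from it.

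The repressor arm did not move as 1 block. Per1 (mm9 chr11:68923364-68923423), which light and glucocorticoids are known to induce, read 11.32, 10.40 and 10.90 in control mice and 11.70, 10.80 and 11.02 in TCE mice. The groups overlapped, and the difference was 0.30 ± 0.32 (95% interval -0.46 to 1.06; adjusted p = 0.669, limma). A second Per1 probe (mm9 chr11:68919895-68919954) did not reach the detection level in any liver.

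Per2 (mm9 chr1:93313046-93313105), whose loss disturbs behavioural rhythm in mice, read 7.04, 7.08 and 7.13 in control mice and 7.78, 7.21 and 7.01 in TCE mice. TCE mouse 1 alone stood above the rest, while TCE mice 2 and 3 were at or near the control values. The difference was 0.25 ± 0.21 (95% interval -0.25 to 0.75; adjusted p = 0.583, limma).

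Per3 (mm9 chr4:150379256-150379315) had the widest interval of the 8 genes. It read 6.88, 5.89 and 6.84 in control mice and 6.56, 6.94 and 5.13 in TCE mice. TCE mouse 3 was lowest and TCE mouse 2 highest of the 6 mice, the reverse of Arntl, and control mouse 2 was also low. The difference was -0.33 ± 0.51 (95% interval -1.56 to 0.91; adjusted p = 0.783, limma).

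Cry1 (mm9 chr10:84594731-84594790), the stronger of the CRY repressors, was well above background in 1 mouse of each group, control mouse 1 and TCE mouse 1, and was not tested. Its signal was 6.71, 3.63 and 4.45 in control mice and 5.30, 2.54 and 4.53 in TCE mice. The brightest value came from the mouse on its own slide. Cry2 was read by a probe for each of its annotated transcripts. The brighter (mm9 chr2:92243807-92243866) read 12.48, 12.41 and 12.02 in control mice and 12.35, 12.05 and 11.90 in TCE mice, a difference of -0.20 ± 0.18 (95% interval -0.64 to 0.23; adjusted p = 0.605, limma). The dimmer (mm9 chr2:92251417-92251476) read 8.44, 7.87 and 7.61 in control mice and 8.54, 8.09 and 7.56 in TCE mice. Its difference was 0.09 ± 0.31 (adjusted p = 0.912, limma), of the opposite sign, and neither probe separated the groups.

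Among the output factors, Dbp (mm9 chr7:52965322-52965381) read 14.36, 14.41 and 13.77 in control mice and 13.97, 14.51 and 13.44 in TCE mice. Mouse 3 of each group was the lowest of its group, and TCE mouse 2 was the highest of all. The difference was -0.21 ± 0.31 (95% interval -0.95 to 0.54; adjusted p = 0.771, limma). The other Dbp probe (mm9 chr7:52965461-52965520) had the same mice at its ends and a difference of -0.04 ± 0.25 (adjusted p = 0.960, limma).

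Tef (mm9 chr15:81657221-81657280) was the steadiest of the 8 genes in control mice, at 14.93, 14.88 and 14.89, an SD of 0.03. The TCE mice read 14.93, 15.02 and 14.21, an SD of 0.44. TCE mouse 3 stood below the other 5 mice, which lay between 14.88 and 15.02. The difference was -0.18 ± 0.23 (95% interval -0.73 to 0.36; adjusted p = 0.712, limma).

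**Figure D2:**
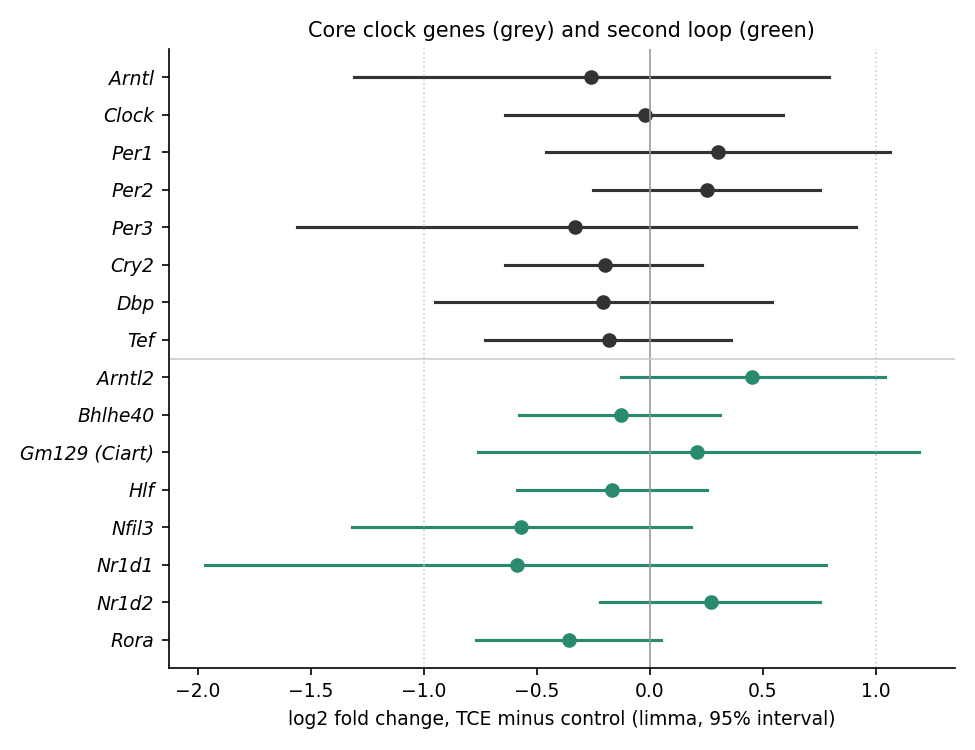
Log2 fold change of TCE over control (x axis) with its 95% limma interval for the 8 tested core clock genes (grey) and 8 of the 9 tested genes of the second loop (green), with n = 3 mice a group. Dotted lines mark 2-fold; every interval crosses 0.

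Some clock genes differed widely between single TCE mice, most of all between TCE mouse 2 and TCE mouse 3. A gap between single mice spreads more than a difference of group means, so they were not set against each other. TCE mouse 3 exceeded TCE mouse 2 by 1.85 in Arntl and 1.00 in Clock and fell below it by 1.81 in Per3, 1.07 in Dbp and 0.81 in Tef (log2). Cry2 differed by -0.15, Per2 by -0.19 and Per1 by 0.22. In these genes TCE mouse 1 was the highest TCE mouse, and the widest gap within the group was with it, at 0.44, 0.77 and 0.90. At 2-fold or more, 3 of the 8 genes differed between TCE mice 2 and 3 (Arntl, Per3 and Dbp), against 5.62% of 13280 genes. Clock, at 1.00 after rounding, lay just under the limit, and which genes pass depends on values near it: with normexp background correction Clock was at 1.01 and Per3 at -0.92, and with the mean of its probes Dbp was at -0.97. TCE mouse 3 was the higher in 1 of them and the lower in 2, as it was in 3.73% and 1.89% of all genes. For TCE mouse 1 the count was 1 of 8 against TCE mouse 2 (background 5.29%) and 1 of 8 against TCE mouse 3 (background 3.8%). Between control mice the count was 0 of 8 in each of the 3 pairs, against 2.61%, 3.65% and 2.66% of all genes.

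The median absolute difference over the 8 genes was 0.90 between TCE mice 2 and 3, where that of all genes was 0.25. It was 0.49 (all genes 0.22) between TCE mice 1 and 2 and 0.70 (all genes 0.19) between TCE mice 1 and 3. In the control pairs it was 0.08, 0.18 and 0.28, beside 0.15, 0.20 and 0.16 for all genes. In 5 of the 8 genes TCE mice 2 and 3 were the highest and lowest of the 6 mice, in either order, as in 9.1% of all genes. TCE mouse 3 was at 1 end of the 6 in 7 of the 8, as in 33.6% of all genes. The range over the 3 mice of a group was larger in TCE than in control mice in 6 of 8 clock genes, with a median of 0.95 against 0.36 (all genes 0.36 against 0.29). It reached 2-fold in 3 clock genes in TCE mice (9.5% of all genes) and in 0 in control mice (5.69% of all genes). These counts describe mice of one group and were set beside all genes after the values had been seen, so they carry no test.

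TCE mice 2 and 3 shared a slide and a scan. In a comparison added after seeing the data, the difference had the same sign in all 8 genes with scaling to the 75th percentile and with normexp background correction. Other filters cannot alter it. Over all alternatives run it ranged from 1.35 to 1.90 in Arntl, 1.00 to 1.03 in Clock, -1.81 to -0.92 in Per3, -1.07 to -0.97 in Dbp and -0.84 to -0.81 in Tef. Markers of several cell types also differed between these mice. The summed linear signal of 5 detected neutrophil and erythroid markers of 6 listed was 30500 in TCE mouse 2 and 92600 in TCE mouse 3, beside 77700 to 111000 in control mice, and haemoglobin genes carried most of it. The neutrophil marker S100a8 read 7.03 and 7.55 in TCE mice 2 and 3 (log2 signal, controls 5.57 to 6.24). S100a9 read 8.92 and 9.49 (controls 8.21 to 9.11). The sum over 4 detected lymphocyte markers of 8 listed was 6010 and 15800, beside 16200 to 19900 in control mice. Cd4 carried most of that sum, at 4700 and 14100, while the probe annotated to the B cell marker Cd79a was higher in TCE mouse 2 (log2 signal 6.49) than in TCE mouse 3 (5.84). The array annotation places the Cd79a probe on mm9 chr12:53180558-53180617, and what it reads was not checked. Sums of 7 hepatocyte markers were 1410000 and 1580000, beside a control range of 1480000 to 1590000. Kupffer cell sums were 23500 in TCE mouse 2 and 29100 in TCE mouse 3 (controls 24400 to 27700). Stellate cell sums were 33000 and 26000 (controls 23100 to 35600). Cholangiocyte sums were 482 and 357 (controls 423 to 577), and endothelial sums 30000 and 27800 (controls 28100 to 29700). The part of cell makeup in the difference between these mice was not tested.

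**Figure D3:**
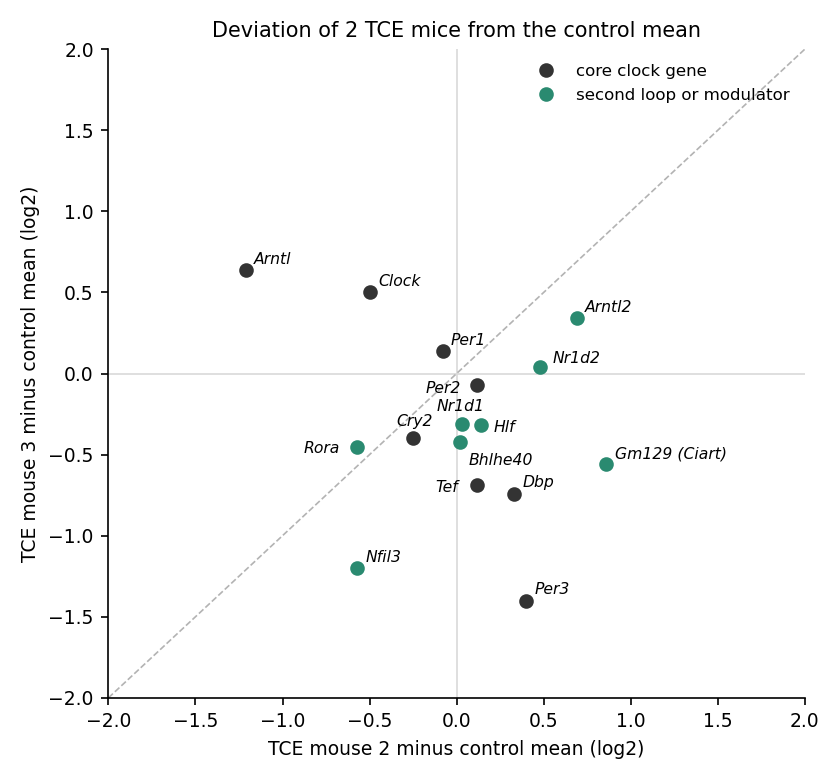
Deviation of TCE mouse 2 (x axis) and TCE mouse 3 (y axis) from the mean of the 3 control mice, in log2 units, for the 8 tested core clock genes (grey) and 8 genes of the second loop (green); the dashed line marks equal deviation. Arntl and Clock lie in the upper left, at -1.21 and 0.64 and at -0.50 and 0.50, while Per3, Dbp and Tef lie in the lower right.

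Averaged by arm, each mouse gave a deviation from the control mean for 2 activators, 4 repressors and 2 output factors. The activator mean was 0.07, -0.03 and -0.03 in control mice and -0.13, -0.86 and 0.57 in TCE mice. The repressor mean was 0.23, -0.25 and 0.02 in control mice and 0.40, 0.05 and -0.43 in TCE mice. The output mean was 0.11, 0.10 and -0.21 in control mice and -0.09, 0.22 and -0.72 in TCE mice. In TCE mouse 2 the activators were low and the other arms near the control mean or above it, and in TCE mouse 3 the activators were high and the other arms low.

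The difference between the activator and repressor arms was -0.17, 0.22 and -0.05 in control mice and -0.53, -0.91 and 1.00 in TCE mice. Its mean ± SD was 0 ± 0.20 in control and -0.14 ± 1.01 in TCE mice, so the group means differed by less than the spread among TCE mice. The difference between activator and output arms was -0.04, -1.08 and 1.29 in the TCE mice, with a mean of 0.06 ± 1.19. Within the repressor arm, Per3 gave most of the contrast between TCE mice 2 and 3, and Per1 ran slightly the other way.

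**Figure D4:**
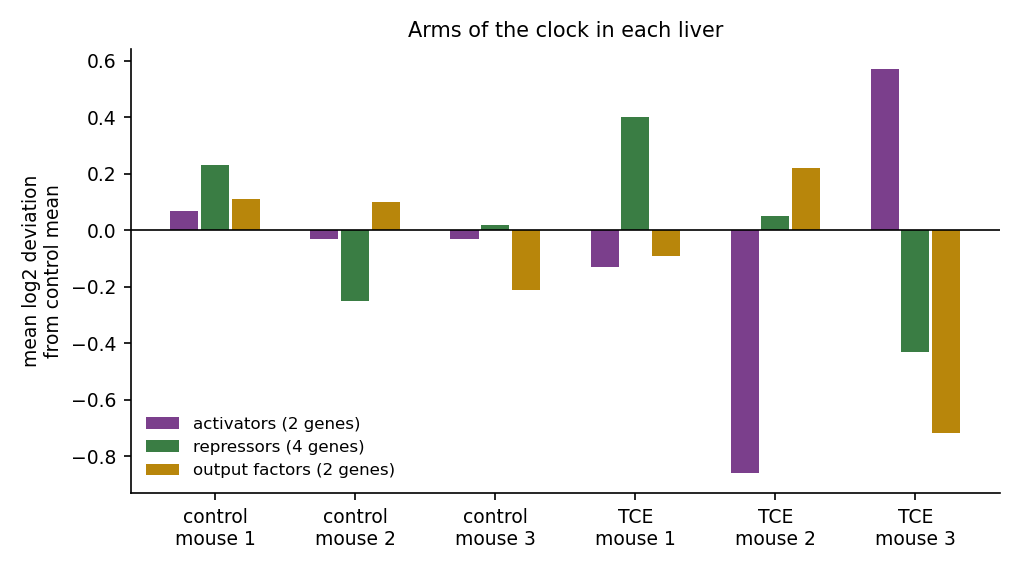
Mean log2 deviation from the control mean (y axis) of the 2 tested activators, 4 repressors and 2 output factors in each of the 6 livers (x axis). In TCE mouse 2 the activators are at -0.86 and the outputs at 0.22; in TCE mouse 3 they are at 0.57 and -0.72.

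Over the 6 mice, which share 1 normalization and include both groups, the signals of Arntl and Clock ran together (Pearson r = 0.928, n = 6). Tef ran with Per3 (r = 0.884) and with Dbp (r = 0.786). The activators ran against the outputs, with r = -0.751 for Arntl and Dbp, -0.728 for Arntl and Tef, -0.641 for Clock and Dbp and -0.83 for Clock and Tef. Clock also ran against Per3 (r = -0.784). Per1 and Per2 ran together (r = 0.661) and apart from the rest: their r with Arntl was 0.135 and -0.266. In Arntl, Clock and Tef the SD was 0.08, 0.13 and 0.03 in control mice and 0.93, 0.50 and 0.44 in TCE mice. The coefficients of these genes therefore rest mostly on the TCE mice. With 6 points each, all these coefficients are a description.

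The genes whose pattern over the 6 mice was most like that of Arntl, among 13272 compared, were Hrc (r = 0.992), 1700052K11Rik (0.986), 9130409I23Rik (0.984), Tmem184c (0.984) and 2610034B18Rik (0.983). A coefficient of at least 0.95 in size was reached by 0.829% of those genes. The genes most like Dbp were Lum (0.997), Taf6l (0.989), Rhoq (0.987), Gm5963 (0.986) and Ptdss1 (0.986), with 0.347% at that size. Hrc read 5.25, 5.30 and 5.36 in control mice and 5.18, 4.72 and 5.66 in TCE mice.

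The second loop and its modulators were taken as 10 genes, of which 9 were tested and 0 were called (0 in limma at an unadjusted p under 0.05 and 0 by the methods' t-test). Their median difference was -0.13, beside 0.02 over all genes. Bhlhe41, a repressor that competes for E-boxes, was not detected well enough to be tested.

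Nr1d1, which encodes REV-ERBalpha, ranged over 1.69 in control mice, more than any of the 8 tested core genes did there. In TCE mice it ranged over 1.53, less than Arntl (1.85) and Per3 (1.81). It read 10.10, 9.97 and 8.42 in control mice and 8.00, 9.53 and 9.18 in TCE mice. Control mouse 3 and TCE mouse 1 were the low mice, a different pair from those at the ends of Arntl. The group difference was -0.59 ± 0.57 (adjusted p = 0.634, limma).

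Nr1d2, which encodes REV-ERBbeta, read 10.77, 10.64 and 10.18 in control mice and 10.80, 11.02 and 10.57 in TCE mice with its brightest probe, a difference of 0.27 ± 0.20 (adjusted p = 0.540, limma). The array annotation places that probe on mm9 chr19:40271435-40271494 and a dimmer one on chr14:19037253-19037312, so what the brighter probe reads is uncertain. The dimmer probe gave a difference of 0.37 (adjusted p = 0.397, limma).

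Rora, which encodes a ROR receptor, read 10.99, 10.87 and 10.73 in control mice and 10.81, 10.29 and 10.41 in TCE mice, a difference of -0.36 ± 0.17 (adjusted p = 0.332, limma). TCE mice 2 and 3 lay below all control mice, and TCE mouse 1 lay among them.

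Nfil3, the repressor that competes with Dbp and Tef at D-boxes, read 11.90, 11.85 and 11.71 in control mice and 11.89, 11.25 and 10.61 in TCE mice. TCE mice 2 and 3 lay below all control mice and TCE mouse 1 did not. The difference was -0.57 ± 0.31 (adjusted p = 0.403, limma). Hlf, the PAR bZip relative of Dbp and Tef, differed by -0.17 ± 0.17 (adjusted p = 0.660), Bhlhe40 by -0.13 ± 0.19 (adjusted p = 0.748) and Arntl2 by 0.45 ± 0.24 (adjusted p = 0.392, limma). The Arntl2 value came from the probe at mm9 chr6:146781976-146782035. Its other probes, at mm9 chr6:146781053-146781112 and chr6:146776628-146776687, were not well above background in any liver and were not tested.

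Gm129, now named Ciart, encodes a repressor of the CLOCK and BMAL1 pair. It read 7.42, 7.52 and 6.65 in control mice and 7.54, 8.05 and 6.63 in TCE mice, with TCE mouse 2 highest and TCE mouse 3 lowest, as in Per3, Dbp and Tef. Its RefSeq promoter window held 3 E-boxes, at 116, 58 and 44 bases before the start. The difference between groups was 0.21 ± 0.41 (adjusted p = 0.824, limma), and TCE mouse 3 was below TCE mouse 2 by 1.42, the largest such gap among the 9 genes. It was the only one of the 9 with those mice at both ends.

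The wider pathway, the second loop included, was taken as 57 genes in 4 lists, of which 56 had a probe and 53 were tested. In all, 2 were called, beside 1.73% of all genes, and the median difference was 0.04. Among 19 genes for the turnover of clock proteins (kinases, ubiquitin ligases and cofactors) 18 were tested and 0 were called in limma (1 at an unadjusted p under 0.05, and 0 by the methods' t-test). The 2 with the smallest p were Wdr5, a chromatin adaptor protein (0.50, adjusted p = 0.123), and Skp1a, a ubiquitin ligase subunit (0.26, adjusted p = 0.354).

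Among 20 genes with daily rhythms in liver, 1 rose, where 1.3% of all genes did. Rgs16, a regulator of G protein signalling whose liver message follows feeding time, read 11.44, 10.29 and 9.78 in control mice and 13.07, 13.34 and 13.37 in TCE mice. The TCE mice lay close together and above every control mouse, and the rise was 2.75 ± 0.41 (log2, SE; 6.75-fold; adjusted p = 0.0313, limma). TCE mice 2 and 3 differed by 0.03 in this gene, while they differed by 1.85 in Arntl. The call was kept in 1 of 6 fits that left out a mouse, the one without control mouse 1. It was lost without any 1 of the other 5 mice, with the fold change between 2.39 and 3.22 and an adjusted p of up to 0.131.

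Among 12 known or likely targets of the PAR bZip factors, 10 were tested and 1 fell, where 0.429% of all genes did. Ces2a, a carboxylesterase, read 16.39, 16.34 and 16.65 in control mice and 15.46, 15.53 and 15.11 in TCE mice, and fell by 1.09 ± 0.16 (log2, SE; adjusted p = 0.0314, limma). Close relatives in the carboxylesterase cluster could share its probe signal. The call was lost in each of the 6 fits that left out a mouse, with the fold change from -1.17 to -0.97 and an adjusted p of 0.0618 to 0.117. Of the 10 tested genes, 7 were higher and 3 lower in TCE mice, with a median of 0.16. The largest change of the list was a rise, that of Cyp2b10, at 2.48 ± 0.54 (adjusted p = 0.0886, limma), which was not called. Without TCE mouse 2 Cyp2b10 was called, at 3.08 (adjusted p = 0.0318, limma).

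Some other genes of the wider pathway are given because of their values, which were seen before they were picked. Usp2, a deubiquitinase, read 10.42, 10.33 and 10.83 in control mice and 11.12, 10.92 and 9.57 in TCE mice, with TCE mouse 3 below all others. Btrc, a ubiquitin ligase subunit that acts on PER proteins, was likewise lowest in TCE mouse 3, at 5.76 beside 6.90 in TCE mouse 2. Avpr1a, the vasopressin receptor, followed the Arntl order within the TCE group, at 8.79 in TCE mouse 2 and 9.98 in TCE mouse 3. Alas1, the first enzyme of haem synthesis, read 14.53, 14.28 and 16.87 in control mice and 16.70, 16.90 and 16.19 in TCE mice. Control mouse 3 thus read like the TCE mice in Alas1, and the adjusted p was 0.356 (limma). Without control mouse 3 it was called, at 2.18 (adjusted p = 0.0435, limma).

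Cyp7a1, the rate-limiting enzyme of bile acid synthesis, read 9.36, 8.20 and 10.14 in control mice and 7.66, 5.75 and 6.79 in TCE mice. The groups did not overlap and the difference was -2.50 ± 0.63, with an adjusted p of 0.118 (limma). Wee1, a cell cycle kinase with E-boxes in its promoter, read 7.85, 7.63 and 8.09 in control mice and 9.54, 9.31 and 8.17 in TCE mice, a difference of 1.15 ± 0.36 (adjusted p = 0.179, limma). It did not pass, and TCE mouse 3 was close to the control mice. Without that mouse it was called, at 1.56 (adjusted p = 0.0363, limma).

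Target genes of signals that can reset the liver clock were also read, while the signals themselves were not measured. Of 17 tested glucocorticoid targets 1 rose, where 1.3% of all genes did. It was Igfbp1, which encodes a secreted binder of insulin-like growth factors. It read 13.55, 13.10 and 13.23 in control mice and 16.17, 14.99 and 15.26 in TCE mice (2.18 ± 0.32, adjusted p = 0.0301, limma), and the median of the list was 0.35. The call was lost without control mouse 1, 2 or 3 or TCE mouse 3, with an adjusted p of up to 0.127. Of the 17 genes, 13 were higher and 4 lower in TCE mice by the group difference. In limma 8 had an unadjusted p under 0.05, where 19.1% of all genes did. The ends of the list were Fkbp5 at -0.39 (adjusted p = 0.450, limma) and Lcn2 at 3.50 (adjusted p = 0.0752, limma), neither of them called.

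Of 16 tested genes of the feeding and fasting response 5 rose, where 1.3% of all genes did, with a list median of 0.61. They were Igfbp1 and 4 more, some of which are also PPARalpha targets. The list mixes genes of the fed and the fasted state, so its count and median do not tell feeding from fasting. Fgf21, a fasting hormone of the liver, rose by 3.38 ± 0.36 (adjusted p = 0.0115, limma), and the call was lost without control mouse 3 (adjusted p = 0.0612). Pdk4, which restrains glucose oxidation, rose by 2.96 ± 0.27 (adjusted p = 0.00657, limma) and kept its call in all 6 fits. Pnpla3, a lipid droplet protein, was not well above background in control mice and was at least 4.44-fold higher in TCE mice (adjusted p = 0.0252, limma), a call kept without TCE mouse 2 only. Angptl4, an inhibitor of lipoprotein lipase, rose by 1.04 ± 0.13 (adjusted p = 0.0191, limma), a call kept without TCE mouse 3 only. For a bound computed against a group at background, the bright group's mean was set against the lowest signal counted as detected or the probe's own, whichever was higher.

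The group differences of 5 of the 8 core genes changed sign with the mouse left out. Without TCE mouse 2 that of Arntl was 0.22 and that of Clock 0.22. Without TCE mouse 3 those of Per3, Dbp and Tef were 0.21, 0.06 and 0.07. Those of Per1, Per2 and Cry2 kept their sign, but Per1 ranged from 0.03 to 0.52 and Per2 from 0.03 to 0.41, both lowest without TCE mouse 1, and Cry2 from -0.35 to -0.11. Within the shared slide, without control mouse 1, the differences were -0.25 for Arntl, 0.04 for Clock, 0.52 for Per1, 0.23 for Per2, -0.15 for Per3, -0.11 for Cry2, -0.11 for Dbp and -0.17 for Tef, and none was called in limma.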

How the data were processed

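Each liver RNA was labelled with Cy3 and hybridised to an Agilent mouse 8x60K array. The authors extracted the deposited spot intensity with Feature Extraction 10.7.1.1, per the labels. They also deposited a table of log2 group means, used here for gene symbols, mm9 positions and 1 check of the normalization (all 55681 probes within 0.05). Its 6 per-mouse flag columns were not used.

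Control spots and outlier spots were left out, log2 intensities (no pseudocount) were averaged by probe and quantile normalized. A probe counted as detected if it was well above background in every mouse of either group, and detected probes were fitted in limma 3.58.1 (lmFit, eBayes, two-sided) in R 4.3.3, with version 1.17.8 of data.table and statmod 1.5.0, after a test on simulated data. The brightest detected probe stood for a gene. The methods' t-test was run on the same values.

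Members and lists were chosen with earlier results of these data known. Named were all members, all second-loop genes but 1 that is not reported here, up to 4 called genes of each other list or its 2 smallest p, the 2 largest changes of the PPARalpha list, and the 5 genes most like Arntl and Dbp. Alternatives changed the normalization (75th percentile), background (normexp, offset 50), filter, outlier spots, blocks, weights, eBayes options, probe rule and mice. Cell type lists were summed as linear signal, and none of their genes passed the threshold. The sums were 24400 to 27700 in control and 23200 to 29100 in TCE mice for Kupffer cells, 28100 to 29700 and 16300 to 30000 for endothelium, 23100 to 35600 and 26000 to 33000 for stellate cells, and 423 to 577 and 357 to 482 for cholangiocytes.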

Additional observations from a re-analysis of the deposited data

How the results depend on the processing

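No clock gene was called under any alternative. The count of called probes was 321. It was 96 with no filter on dim probes, 63 with a replicate block, 594 by the methods' t-test and 35 after its Benjamini-Hochberg adjustment, and 114 to 245 with 1 mouse left out. The other clock pathway genes called, 2, became 0 with no filter, 0 with the replicate block, 4 by the t-test (Ces2a, Cyp2b10, Cyp7a1 and Rgs16) and 0 after adjustment, and 0 to 2 with 1 mouse left out. No pairing by replicate number was visible: deviations of same-numbered mice correlated at 0.09, 0.01 and -0.09, and not every mouse correlated best with its own number. Such correlations cannot tell whether same-numbered mice were handled together. Clock turned from -0.02 to 0.01 with the 75th percentile and with array weights. With 1 mouse left out, Arntl ranged from -0.71 to 0.22 and Clock from -0.28 to 0.22 (TCE mouse 3 and TCE mouse 2 left out at the ends), and Clock was 0.04 without control mouse 1. Per3 ranged from -0.69 to 0.21, Dbp from -0.47 to 0.06 and Tef from -0.33 to 0.07 (TCE mouse 2 and TCE mouse 3 left out at the ends). The cause was not tested. The difference between activator and repressor arms, -0.14, ranged with 1 mouse left out from -0.72 without TCE mouse 3 to 0.24 without TCE mouse 2, and was 0.25 with no filter, which adds the untested Npas2 and Cry1. With no filter, Npas2 differed by 0.56 and Cry1 by -0.81 (adjusted p = 0.803 and 0.862, limma), both from signals near background. Having 3 mice a group limits the precision.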
